A study of Mus musculus with 30 samples.

Results

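Cultured telencephalon cells of Xbp1 -/- mouse embryos were compared with those of Xbp1 +/+ embryos in dishes that received no BDNF. The comparison used the 5 arrays titled KO_basal and the 5 arrays titled WT_basal, 10 of the 30 arrays of the series. Telencephalon, the forebrain region from which cortex and basal ganglia arise, was dissected at embryonic day 12.5 from litters of 2 Xbp1 +/- females mated with Xbp1 +/- males. Cells of 6 Xbp1 -/- embryos were pooled, and so were cells of 4 Xbp1 +/+ embryos. Each pool was divided over 15 dishes and grown at low density in serum-free medium. The basal dishes were lysed on day 4 in vitro, and each array held the RNA of 1 dish. The other 20 arrays came from dishes of the same pools that received BDNF, the growth factor that acts through the TrkB receptor, at 100 ng/ml for 24 h (lysed on day 4) or for 48 h (lysed on day 5), again 5 per genotype. All values below are signals of Affymetrix Mouse Genome 430A 2.0 arrays divided by the median of their own array, so that 1 is the median probe set. Differences are log2 values, Xbp1 -/- minus Xbp1 +/+, with their SE. A gene "rose" or "fell" in the knockout where the adjusted p of limma's moderated test was under 0.05.

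XBP1 is a transcription factor that acts in the unfolded protein response, the set of pathways by which a cell matches the capacity of its endoplasmic reticulum (ER) to the proteins that enter it. When unfolded proteins gather in the ER, the membrane sensor IRE1 (gene Ern1) cuts an intron out of Xbp1 mRNA. The spliced mRNA encodes the active factor, which is known to switch on genes for chaperones, protein translocation, ER-associated degradation and transport to the Golgi. The sensors PERK (Eif2ak3) and ATF6 drive parallel branches, PERK through translation of ATF4. In mice, loss of Xbp1 from the germ line is lethal before birth, with a poorly developed liver and anaemia.

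The dishes of a genotype were aliquots of 1 pool, so all p-values measure the spread between dishes and not between embryos. Genotype, embryo pool and any difference in dissection cannot be told apart. The same holds for sex. The X-linked transcript Xist, which is made from the inactive X chromosome of female cells, read 53.9, 55.9, 58.1, 61.5 and 54.9 times the array median in the 5 Xbp1 -/- dishes, against 0.229 to 0.433 in the Xbp1 +/+ dishes. The Y-linked genes Eif2s3y and Kdm5d showed the opposite, at 0.0542 to 0.119 and 0.0875 to 0.119 in Xbp1 -/- dishes, against 6.67 to 7.55 and 1.05 to 1.55 in Xbp1 +/+ dishes. Other Kdm5d probe sets were faint and overlapped. They read 0.107 to 0.321 in Xbp1 -/- against 0.168 to 0.379 in Xbp1 +/+ dishes, and 0.0164 to 0.0452 against 0.0265 to 0.104. For the 3 probe sets quoted first, 1 per transcript, the groups did not overlap, also over all 15 arrays of each pool. Genes on X and Y (410) were therefore left out of every test. Before scaling, array medians were 96.7 to 112 intensity units in Xbp1 -/- and 85.2 to 103 in Xbp1 +/+ dishes. The Gapdh 3'/5' ratio, which grows as RNA degrades or labelling falls short, averaged 2.73 ± 0.102 in Xbp1 -/- and 2.86 ± 0.0992 in Xbp1 +/+ dishes (SD, n = 5 each), a difference of -0.127 (two-sided exact permutation test over 252 splits, p = 0.0873, where 0.00794 is the smallest possible). No array stood apart from its group. Pearson correlations of log2 signals ran from 0.986 to 0.993 within Xbp1 -/-, from 0.985 to 0.992 within Xbp1 +/+ and from 0.965 to 0.975 between the genotypes.

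Transcript of the targeted gene was not lower in the knockout. The brightest Xbp1 probe set read 23.1, 25, 25.6, 26 and 26 times the array median in Xbp1 -/- dishes, against 20.6, 22.2, 21.7, 22 and 21.1 in Xbp1 +/+ dishes. The groups did not overlap, and Xbp1 mRNA rose by 0.22 ± 0.06 (1.17-fold, adjusted p = 0.00497). A fainter Xbp1 probe set read 6.73 to 7.38 in Xbp1 -/- against 2.87 to 3.89 in Xbp1 +/+ dishes, a rise of 1.09 ± 0.10 (adjusted p = 8.35e-09 in a fit of all probe sets). The other pair of Xbp1 probe sets differed by 0.14 (adjusted p = 0.259) and 0.04 (adjusted p = 0.966). The deleted stretch of Xbp1 is not named in the labels, and mRNA of the altered allele can bind these probes, so the Xbp1 signal does not check the genotype.

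**Figure D1:**
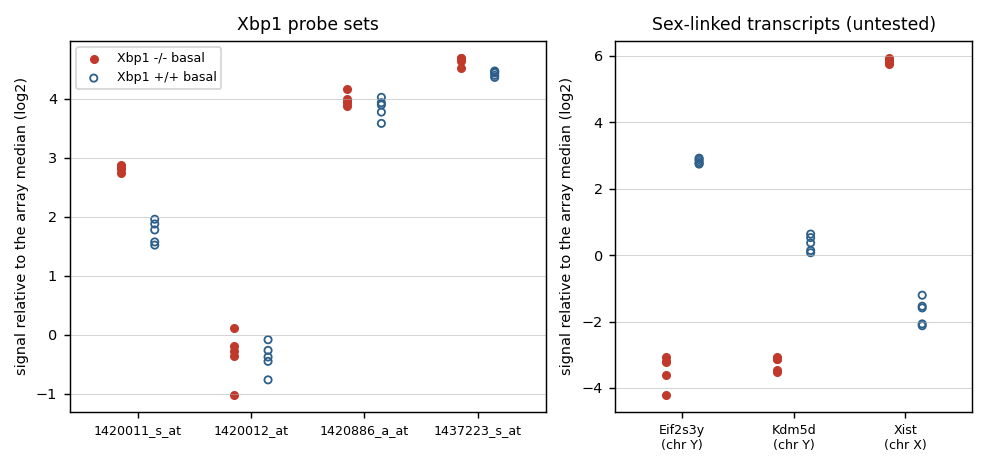
Signal relative to the array median (log2) of the 4 Xbp1 probe sets (left) and of 3 sex-linked transcripts (right), with 1 point per basal dish, Xbp1 -/- filled and Xbp1 +/+ open. The brightest Xbp1 probe set lies at 23.1 to 26 in Xbp1 -/- dishes, above every Xbp1 +/+ dish, Xist reads 53.9 to 61.5 times the array median in Xbp1 -/- dishes and under 1 in Xbp1 +/+ dishes, and Eif2s3y and Kdm5d show the reverse.

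Many autosomal genes differed between the cultures, and the larger changes were mostly rises. Of 7190 tested genes, 1995 (27.7%) passed the threshold, 653 higher (9.08%) and 1342 lower (18.7%) in Xbp1 -/- dishes. At least 1.5-fold changes were 308 rises and 147 falls, and at least 2-fold changes 117 rises and 33 falls. The median change of a risen gene was 0.56 and of a fallen gene -0.31. The 5 arrays of each genotype did not overlap for 1360 tested genes (18.9%), higher in Xbp1 -/- for 7.04% and lower for 11.9% of the tested genes. The balance of rises and falls depended on scaling. Rises were 32.7% of the calls after division by the median, at which the median difference over all tested genes was -0.09. They were 46.5% after quantile normalization (826 higher, 951 lower), 46% after scaling to the 75th percentile (792 and 930) and 73.5% on the signals as deposited (595 and 215).

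Of the 15 largest rises, 4 were on the list of meningeal and mesenchymal markers and 2 on that of non-telencephalic brain markers. Slc6a3, the dopamine transporter, read 1.5, 3.08, 1.65, 1.63 and 1.76 times the array median in Xbp1 -/- dishes, against 0.213, 0.372, 0.348, 0.282 and 0.435 in Xbp1 +/+ dishes. Every Xbp1 -/- dish lay far above every Xbp1 +/+ dish, where the signal was faint, and Slc6a3 rose by 2.53 ± 0.19 (adjusted p = 8.34e-13). No detection calls were used, so the Xbp1 +/+ level is not shown to be above background and the size of this rise is uncertain. Foxa1, a transcription factor of the floor plate and of the precursors of midbrain dopamine neurons, read 3.21, 4.64, 4.01, 4.43 and 4.32 in Xbp1 -/- against 0.715, 0.945, 0.574, 0.695 and 0.678 in Xbp1 +/+ dishes. It rose by 2.52 ± 0.22 (adjusted p = 3.56e-11), with the same limit. Small proteoglycans of the extracellular matrix were among the rises, with Epyc (epiphycan) up by 2.35 ± 0.16, Fmod (fibromodulin) by 2.23 ± 0.13 and Lum (lumican) by 1.99 ± 0.15. Fmod read 5.34 to 7.05 in Xbp1 -/- against 1.11 to 1.63 in Xbp1 +/+ dishes. Dkk2, a secreted modulator of Wnt signalling, rose by 2.29, and Igfbp4, a binding protein of insulin-like growth factors, by 2.05. Igfbp4 was the brightest of these genes, at 21.9, 20.8, 23.1, 24.3 and 24.2 in Xbp1 -/- against 4.41, 4.84, 5.07, 7.81 and 5.89 in Xbp1 +/+ dishes. Absence of overlap between the genotypes was a condition for choosing the 15 largest rises and the 15 largest falls. The other genes among the 15 largest rises were the transcription factors Foxd1 (2.05), Tfap2b (1.98), Tal1 (1.95) and Klf4 (1.79), the membrane protein Emp1 (2.03), the anticoagulant receptor thrombomodulin (Thbd, 1.89), and the secreted Serpinf1 (1.83) and Abi3bp (1.78).

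Of the 15 largest falls, 3 were on the list of choroid plexus and roof plate markers, 2 on that of cortical neurons and 1 on that of astrocytes. Ttr, the thyroid hormone carrier transthyretin and a main product of choroid plexus, read 25.8, 10.7, 2.68, 7.75 and 42.1 in Xbp1 -/- dishes, against 135, 145, 141, 152 and 134 in Xbp1 +/+ dishes. The Xbp1 +/+ dishes were alike, while the Xbp1 -/- dishes spread widely, all of them below. Ttr fell by 3.56 ± 0.46 on the log2 scale (11.8-fold lower, adjusted p = 2.12e-07). The folate receptor Folr1 read 0.496 to 0.695 in Xbp1 -/- against 2.52 to 3.5 in Xbp1 +/+ dishes (difference -2.30 ± 0.15), and the epithelial keratin Krt8 read 0.369 to 0.61 against 1.85 to 3.18 (-2.18 ± 0.24). Clu (clusterin), a secreted chaperone made by astrocytes and other cells, fell to 5.57 to 7.45 in Xbp1 -/- against 17.5 to 21.4 in Xbp1 +/+ dishes (-1.58 ± 0.09, 3-fold lower). Fezf2, the factor that specifies deep-layer cortical neurons, read 2.35, 2.14, 2.55, 1.96 and 2.33 in Xbp1 -/- against 7.12, 5.57, 5.57, 7.55 and 5.78 in Xbp1 +/+ dishes (-1.47 ± 0.12, adjusted p = 1.09e-11). Neurod6, a transcription factor of cortical pyramidal neurons, fell by 1.38 on the log2 scale. The remaining 9 of the 15 largest falls were the peptide transporter Slc15a2 (-1.39), the motor protein Myo5b (-1.37), Mmd2 (-1.34), the guanylate cyclase subunit Gucy1a1 (-1.32), the prostaglandin D synthase Ptgds (-1.27), the antisense transcript Dlx1as (-1.26), the metallothionein Mt1 (-1.26), the fatty acid elongase Elovl7 (-1.24) and the reductase Akr1c13 (-1.24). Dlx1as overlaps the Dlx gene cluster, and its probe set may also report its neighbours. All 30 genes of both sets passed the threshold under every other setting in which they were tested. They were chosen as the largest changes without overlap on these same arrays, which made this outcome likely. Of the 157 named calls beside Xbp1, 84 held under every setting that tested them.

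**Figure D2:**
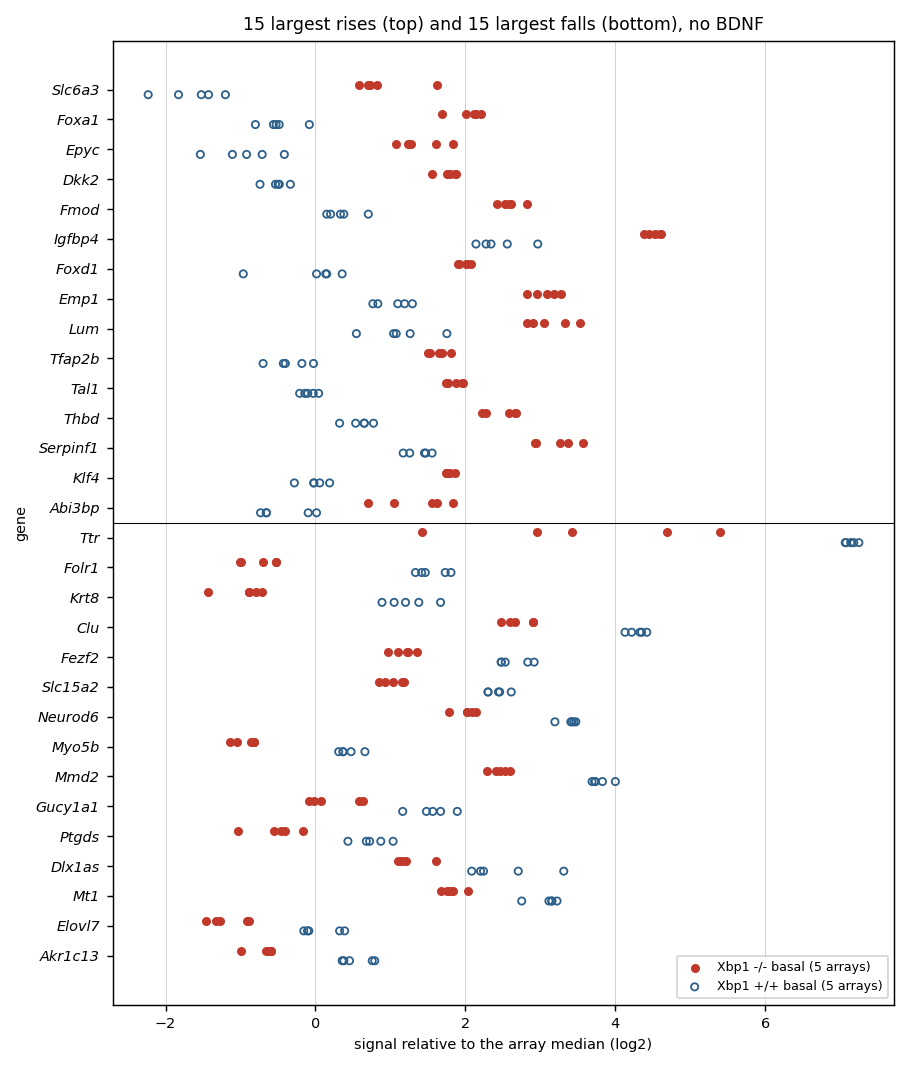
Signal relative to the array median (log2) of the genes with the 15 largest rises and the 15 largest falls, with 1 point per basal dish, Xbp1 -/- filled and Xbp1 +/+ open. The genotypes are separated for every gene, a condition of the choice, and the Xbp1 -/- dishes spread most for Ttr, where they read 2.68 to 42.1.

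Region and cell type were then read from lists of marker genes, since the arrays measured whole cultures. These lists and those further below were chosen with earlier results of these data known. Their counts describe the listed genes and are no independent evidence. In such bulk samples, fewer cells of a type and less RNA per cell cannot be told apart. Telencephalon markers were lower in the knockout. Of 9 tested members 8 fell (88.9%, against 18.7% of all genes) and none rose. The median difference was -0.91 against -0.09 over all genes. The falls included Lhx2, which selects cortical fate, at 2, 2.18, 2.33, 2.36 and 2.29 in Xbp1 -/- against 4.98, 4.71, 4.63, 6.42 and 5.48 in Xbp1 +/+ dishes (-1.22 ± 0.10, adjusted p = 1.27e-11). Eomes, which marks intermediate progenitors of cortex, read 2.7 to 3.73 in Xbp1 -/- against 6.02 to 9.09 in Xbp1 +/+ dishes (-1.09). Six3, the member that did not pass, differed by 0.17 (adjusted p = 0.256). All 8 falls held without overlap between the genotypes, while 11.9% of all tested genes were lower without overlap.

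Markers of midbrain, hindbrain and diencephalon were higher. Of 40 measured members only 11 passed the filter on low signals, which favours members that are bright in 1 genotype. Of these 11, 10 rose (90.9%, against 9.08% of all genes) with a median of 1.26. Without that filter 17 of 40 rose and 1 fell, with a median of 0.48. Beside Slc6a3 and Foxa1, the risen genes included Lhx1 (1.5), Irx3 (1.47), Irx5 (1.26) and Irx1 (1.02), patterning factors expressed behind the telencephalon. Tcf7l2, a Wnt effector strongly expressed in thalamus, rose by 1.40 ± 0.12. It read 10.4, 10.4, 10.7, 8.58 and 6.77 in Xbp1 -/- against 2.73, 3.45, 3.53, 4.57 and 3.47 in Xbp1 +/+ dishes. The rate-limiting enzyme of dopamine synthesis, Th, rose by 0.62 at a low signal of 0.54 to 0.947 in Xbp1 -/- against 0.298 to 0.725 in Xbp1 +/+ dishes. Nr4a2, a factor of dopamine neurons, did not pass (0.03, adjusted p = 0.906). Among members too faint to be tested, the midbrain factor En2 read 1.12 to 1.72 in Xbp1 -/- and 0.119 to 0.287 in Xbp1 +/+ dishes, Gata3 read 1.46 to 1.88 and 0.0312 to 0.222, and Foxa2 read 1.08 to 1.34 and 0.183 to 0.298. These 3 were picked after their values were seen. The Hox genes of hindbrain and spinal cord stayed below 0.5 in every dish of both genotypes. Signals were thus read for markers of telencephalon and for markers of other brain regions. Faint readings are not shown to be above background, since no detection calls were used. The share of other brain tissue in either pool was not tested.

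Genes of cortical excitatory neurons were mostly lower. Of 15 tested members of that list, 12 fell (80%) and 2 rose (13.3%), against 18.7% and 9.08% of all genes, with a median of -0.97. Among the falls, the layer factor Cux1 (-0.41), lay at the threshold itself (adjusted p = 0.04997). This list shares Fezf2, Lhx2, Bcl11b, Eomes and Tbr1 with the telencephalon markers. Neurod6 read 4.26, 4.05, 3.44, 4.41 and 4.05 in Xbp1 -/- against 10.6, 9.15, 11.1, 10.9 and 10.7 in Xbp1 +/+ dishes, which puts every Xbp1 -/- dish below 5 and every Xbp1 +/+ dish above 9. Neurod2 (-1.23), the deep-layer factor Bcl11b (-1.11) and Sox5 (-1.05) also fell. The vesicular glutamate transporter Slc17a6 went the other way (0.42, adjusted p = 0.00112), as did Lhx9, a factor of diencephalic and midbrain neurons (1.31 ± 0.09). Lhx9 read 3.16 to 4.04 in Xbp1 -/- against 1.38 to 1.53 in Xbp1 +/+ dishes.

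Most of the tested transcription factors of GABAergic neurons of the ventral telencephalon fell. The enzymes that make GABA did not pass in basal dishes. Of 12 tested lineage factors 7 fell (58.3%) and 1 rose (8.33%), against 18.7% and 9.08% of all genes. The median was -0.58, and it was -0.13 over 17 members without the filter on low signals. Dlx1, Dlx2 and Dlx5 among the falls are also counted with the telencephalon markers. Lhx6, which marks interneurons from the medial ganglionic eminence, read 2.74, 3.36, 3.09, 3.35 and 2.79 in Xbp1 -/- against 5.65, 5.25, 7.1, 5.66 and 6.04 in Xbp1 +/+ dishes (-0.95 ± 0.08, adjusted p = 1.62e-11). Dlx2 (-0.91), Dlx5 (-0.88), Meis2 (-0.81) and Isl1 (-0.76) fell as well. Zfhx3 rose (0.82 ± 0.11), at 20.7 to 23.3 in Xbp1 -/- against 10 to 14.3 in Xbp1 +/+ dishes. Gad1, the main GABA-synthesizing enzyme, read 31.6, 41.7, 42.4, 40.3 and 37.3 in Xbp1 -/- against 34.4, 39.1, 46.5, 42.6 and 41.3 in Xbp1 +/+ dishes, groups that overlapped widely. Its difference was -0.08 ± 0.07 (adjusted p = 0.458), that of Gad2 0.12 ± 0.15 (adjusted p = 0.605). With BDNF Gad1 was lower in Xbp1 -/- dishes, at 24 h (-0.35, adjusted p = 0.000569) and at 48 h (-0.35, adjusted p = 0.000488), and its interaction terms did not pass (adjusted p = 0.585 and 0.529). The vesicular GABA transporter Slc32a1 passed narrowly, at -0.28 ± 0.11 (adjusted p = 0.048), a call that was lost under quantile normalization, among other settings.

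Products of interneurons moved both ways, more of them lower. Of 9 tested peptides and calcium-binding proteins 4 fell (44.4%) and 2 rose (22.2%), against 18.7% and 9.08% of all genes. A further 7 measured members were too faint to be tested. Somatostatin (Sst), an inhibitory neuropeptide, read 6.82, 8.04, 7.36, 8 and 8.46 in Xbp1 -/- against 14.7, 15.6, 17.1, 15.1 and 15.3 in Xbp1 +/+ dishes (-1.01 ± 0.08, 2.01-fold lower). Reln, the secreted layering signal made by Cajal-Retzius cells and some interneurons, read 17.5 to 18.8 in Xbp1 -/- against 32.6 to 38.3 in Xbp1 +/+ dishes (-0.95). The calcium buffer Calb1 (-0.92) and neuropeptide Y (Npy, -0.61) fell, and the opioid and nociceptin precursors Penk (0.42) and Pnoc (0.29) rose. Of 27 tested genes used by all neurons, 7 fell (25.9%, against 18.7% of all genes) and 1 rose, with a median of -0.13 against -0.09. The falls included the complexins Cplx2 (-0.79) and Cplx1 (-0.65), which control vesicle fusion, and the dynein chain Dync1i1 (-0.76). Neuronal tubulin Tubb3 read 20.8 to 27 in Xbp1 -/- against 22.3 to 27.6 in Xbp1 +/+ dishes and did not pass (-0.13, adjusted p = 0.16).

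**Figure D3:**
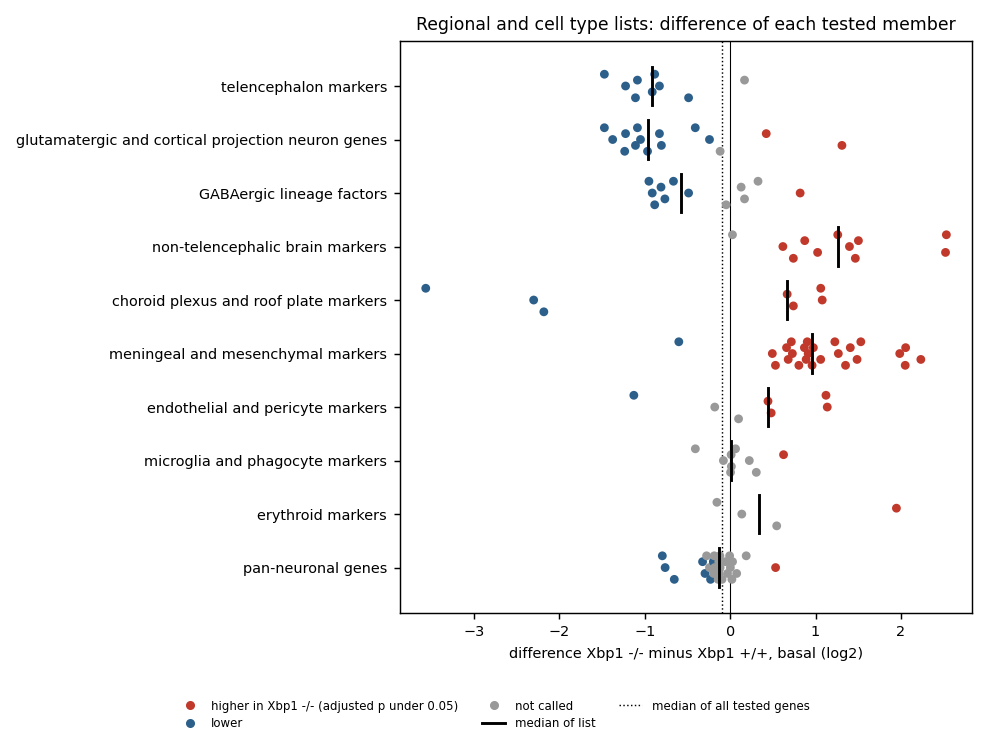
Difference Xbp1 -/- minus Xbp1 +/+ in basal dishes (log2) for each tested member of 10 regional and cell type lists, with 1 point per gene. Red marks rises, blue marks falls and grey marks genes that did not pass, the bar is the median of the list, and the dotted line is the median of all tested genes. Meningeal and non-telencephalic markers lie to the right, telencephalic and cortical genes to the left.

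Markers of meninges and other mesenchyme, the connective tissue around the brain, were mostly higher. Of 25 tested members (33 measured) 24 rose and 1 fell, with a median of 0.96. The filter on low signals favours members that are bright in 1 genotype. Without it 28 of 33 rose and 1 fell, with a median of 0.91. Their summed signal was 373 to 434 times the array median in Xbp1 -/- against 186 to 220 in Xbp1 +/+ dishes, with no overlap. The collagen gene Col1a2 alone read 86 to 103 in Xbp1 -/- against 45.5 to 56.5 in Xbp1 +/+ dishes (0.87 ± 0.07), and Col3a1 read 52.6 to 60.7 against 24.9 to 32.8 (0.97 ± 0.07). Foxc1 and Foxc2, factors needed for meninges to form, rose by 0.89 and 1.06. Thbs2, a matrix protein that restrains vessel growth, read 7.51, 6.41, 7.44, 8.38 and 9.18 in Xbp1 -/- against 2.23, 2.54, 2.82, 2.75 and 3.12 in Xbp1 +/+ dishes (1.53 ± 0.10). Postn (periostin) was the member that fell (-0.60 ± 0.08). The part of this tissue in the other differences was not tested.

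Of 17 measured choroid plexus and roof plate markers only 7 passed the filter on low signals. These split into 4 rises (57.1%) and 3 falls (42.9%), against 9.08% and 18.7% of all genes. Without that filter 4 rose and 5 fell, with a median of -0.17 against 0.67 with it. The epithelial members Ttr, Folr1 and Krt8 fell. The signals and factors of the dorsal midline Bmp4 (1.08 ± 0.14), Msx2 (1.06), Otx2 (0.74) and Rspo2 (0.67) rose. Otx2 is also counted with the non-telencephalic brain markers. Bmp4 read 7.19, 6.35, 7.41, 7.15 and 10.8 in Xbp1 -/- against 3.4, 3.01, 4.62, 3.21 and 4.1 in Xbp1 +/+ dishes, and none overlapped. Krt18, the partner of Krt8, was too faint to be tested and read 0.171 to 0.215 in Xbp1 -/- against 1.12 to 1.71 in Xbp1 +/+ dishes. The BMP target Id3 rose by 1.42 ± 0.12 and Id1 by 0.54.

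Markers of vessels moved both ways, and blood and immune markers mostly did not pass. Of 7 tested endothelial and pericyte markers 4 rose, Pdgfrb (1.14), Tagln (1.12), Acta2 (0.48) and Notch3 (0.44), and the pericyte gene Rgs5 fell (-1.13). The shares were 57.1% and 14.3%, against 9.08% and 18.7% of all genes. Without the filter on low signals 5 of 23 rose and 3 fell, with a median of -0.05, and with the mean of probe sets Acta2 (0.16, adjusted p = 0.297) and Notch3 (0.39, adjusted p = 0.0599) did not pass. Pdgfrb, a receptor of pericytes and mesenchyme, read 2.56, 2.23, 2.51, 2.61 and 2.58 in Xbp1 -/- against 1.1, 1.22, 1.2, 1.07 and 1.09 in Xbp1 +/+ dishes. Endothelial genes such as Pecam1, Cdh5 and Kdr were too faint to be tested. Of 9 tested microglial markers 1 rose (C1qb, 0.63), a share of 11.1% near the 9.08% of all genes. The receptor Csf1r read 2.26 to 2.77 in Xbp1 -/- against 2.29 to 2.99 in Xbp1 +/+ dishes (-0.08, adjusted p = 0.624). Of 4 tested erythroid genes only Tal1 rose (25%, against 9.08% of all genes). The embryonic globin Hbb-y read 47 to 82.9 in Xbp1 -/- against 49.6 to 89.7 in Xbp1 +/+ dishes (-0.16, adjusted p = 0.583).

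Progenitor genes moved both ways. Of 25 tested members 7 rose (28%) and 8 fell (32%), against 9.08% and 18.7% of all genes. Sox2, which maintains neural stem cells, read 10.7, 13.1, 12, 12.2 and 11.4 in Xbp1 -/- against 15.4, 19.1, 16.1, 19.4 and 17.2 in Xbp1 +/+ dishes (-0.55 ± 0.08), and the Notch ligand Dll1 fell by 0.51 on the log2 scale. Cyclin D1 (Ccnd1) rose by 0.88 ± 0.11, at 3.76 to 4.1 in Xbp1 -/- against 1.95 to 2.35 in Xbp1 +/+ dishes. Of 45 tested cell cycle genes 13 fell (28.9%) and none rose, led by Cenpf (-0.52) and Aurkb (-0.47), both of mitosis. That count rested on the array WT_basal replicate 4, which read highest for Cenpf, Aurkb, Ube2c and Mcm3. Without it 3 fell, and no gene of the list passed on the signals as deposited. Of 11 tested astrocyte markers 4 fell (36.4%), led by Clu and Aldoc (-1.05), and 2 rose (18.2%), the gap junction gene Gja1 (0.76) and Apoe (0.33).

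Genes of the ER and secretory pathway, the known field of XBP1, passed about as often as other genes. In the 4 lists of chaperones, degradation, translocation and Golgi transport together with the sensors, 122 genes were tested. Of these 15 rose (12.3%) and 17 fell (13.9%), against 9.08% and 18.7% of all genes, with a median of -0.03. The share called was 26.2%, close to the 27.7% of all genes. Of 10 tested sensors and factors beside Xbp1, Nfe2l2 (0.52 ± 0.09) and the protease Mbtps1 (0.29), which activates ATF6, rose. The phosphatase Ptpn1 (-0.31 ± 0.06) and the RNA ligase Rtcb (-0.26), which joins spliced Xbp1 mRNA, fell. With the mean of probe sets Mbtps1 (0.15, adjusted p = 0.491) and Rtcb (-0.11, adjusted p = 0.447) did not pass. The sensors PERK (Eif2ak3, -0.16, adjusted p = 0.132) and Atf6 (-0.12, adjusted p = 0.461) and the factor Atf4 (0.09, adjusted p = 0.472) did not pass. Ern1 itself, the kinase that splices Xbp1, was too faint to be tested, at 0.0499 to 0.306 in Xbp1 -/- and 0.0864 to 0.219 in Xbp1 +/+ dishes.

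Several genes often used as readouts of XBP1 and of the unfolded protein response did not pass in basal dishes, though some were lower in the knockout dishes with BDNF. They are named here after their values were seen. Hspa5, the main ER chaperone BiP, read 62.6, 68.5, 71.8, 69.5 and 69.7 in Xbp1 -/- against 61.2, 63.9, 72.9, 71.4 and 62 in Xbp1 +/+ dishes. The groups overlapped, with a difference of 0.05 ± 0.06 (adjusted p = 0.561). Dnajb9 (-0.19 ± 0.10, adjusted p = 0.155), a co-chaperone of BiP and a classic XBP1 target, read 7.05 to 11.2 in Xbp1 -/- against 9.48 to 10.7 in Xbp1 +/+ dishes. Edem1, a lectin of ER-associated degradation, differed by 0.04 ± 0.10 (adjusted p = 0.802) and the translocon subunit Sec61a1 by -0.04 ± 0.07 (adjusted p = 0.718). Sel1l, a subunit of the degradation complex, was higher in every Xbp1 -/- dish (1.61 to 1.8 against 1.28 to 1.57) but missed the threshold (0.25 ± 0.10, adjusted p = 0.0636). With BDNF Dnajb9 fell at 24 h (-0.38, adjusted p = 0.00522) and at 48 h (-0.52, adjusted p = 0.000157), Sec61a1 at 24 h (-0.19, adjusted p = 0.0351) and Edem1 at 48 h (-0.29, adjusted p = 0.0308), while Sel1l rose at 48 h (0.34, adjusted p = 0.0133). The interaction terms of these genes did not pass (adjusted p = 0.603 or more). Other members of the same lists did pass in basal dishes and are counted next. Among them the translocation genes Sec61b (-0.21, adjusted p = 0.0156) and Sec63 (-0.24, adjusted p = 0.00609) fell, while Stt3a (0.37) rose.

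The ER genes that did pass went in both directions. Over all tested genes 9.08% rose and 18.7% fell. The shares were 17.9% and 10.7% for chaperones and 0% and 17.6% for degradation. They were 12.9% and 16.1% for translocation and glycosylation and 11.1% and 11.1% for transport between ER and Golgi. The degradation falls and the transport rises were thus near the share of all genes. Of 28 tested chaperones 5 rose, Fkbp7 (1.07), Pdia3 (0.58), Pdia5 (0.44), Txndc5 (0.34) and Hsp90b1 (0.31), and 3 fell, among them Sdf2l1 (-0.38). Pdia3, a disulfide isomerase of glycoproteins, read 13.4, 14.7, 15.1, 15.4 and 14.6 in Xbp1 -/- against 7.45, 10.6, 11.5, 10.6 and 9.11 in Xbp1 +/+ dishes, without overlap. Of 17 tested genes of ER-associated degradation none rose and 3 fell, by 0.21 to 0.36 on the log2 scale. These were Edem2, Ube2g2 and Rnf5. Such counts moved with scaling and with single arrays, since 11 chaperones rose and 2 fell after quantile normalization, and no chaperone or degradation gene fell without Xbp1 -/- replicate 2. Sdf2l1 and Edem2 lost their calls in most settings, among them the fit of the 10 basal arrays alone (adjusted p = 0.063 for Sdf2l1 and 0.0605 for Edem2). Of 31 tested translocation and glycosylation genes 4 rose, led by the oligosaccharyltransferase subunit Stt3a (0.37 ± 0.05), and 5 fell. The falls were the signal peptidase subunit Sec11c (-0.32), Alg2 (-0.31), Sec63 (-0.24), Sec61b (-0.21) and Srp14 (-0.20). With the mean of probe sets Alg2 (adjusted p = 0.46) and Sec63 (adjusted p = 0.118) did not pass. Of 36 tested genes of transport between ER and Golgi 4 rose and 4 fell. Kdelr3, a receptor that returns chaperones to the ER, read 3.94, 3.36, 4.34, 3.65 and 5.09 in Xbp1 -/- against 1.98, 2.14, 2.44, 2.07 and 2.41 in Xbp1 +/+ dishes (0.87 ± 0.11, 1.83-fold). The COPII coat gene Sec24d (0.56) and the cargo receptor Lman1 (0.44) also rose. Preb, the exchange factor that starts COPII coats, fell (-0.78 ± 0.08), at 6.47 to 7.74 in Xbp1 -/- against 9.85 to 14.7 in Xbp1 +/+ dishes. The medians of these lists lay within 0.05 of 0, and those of degradation, translocation and transport turned positive under quantile normalization.

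**Figure D4:**
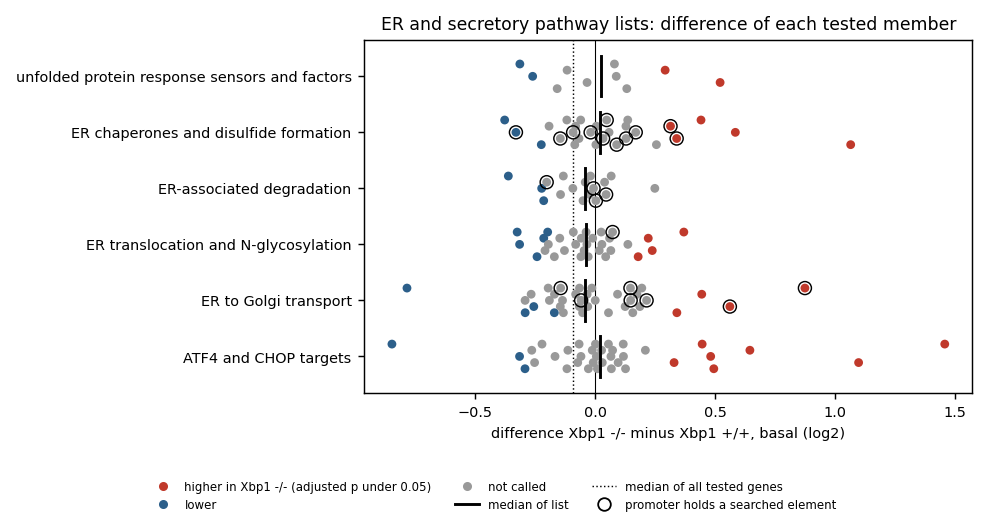
Difference Xbp1 -/- minus Xbp1 +/+ in basal dishes (log2) for each tested member of 6 lists of the ER, the secretory pathway and the ATF4 branch, with 1 point per gene. Red marks rises, blue marks falls, grey marks genes that did not pass, rings mark genes whose promoter holds a searched element, the bar is the median of the list, and the dotted line is the median of all tested genes. Most members lie close to 0, with Kdelr3, Fkbp7, Nupr1 and Eif4ebp1 to the right and Preb and Ddit4 to the left.

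Because XBP1 and ATF6 are known to act through short promoter elements, the RefSeq promoters of build GRCm38.p6, each reaching from 250 bases before to 50 bases after a gene's start, were searched on both strands for exact matches. The ER stress response element (ERSE) was searched as CCAAT, 9 free bases and CCACG, ERSE-II as ATTGG, 1 free base and CCACG, and the unfolded protein response element (UPRE) as TGACGTGG. All of these elements share CCACG, read on one strand or the other, and no matches overlapped within the stretches shown. Of 32851 promoters 0.119% held ERSE, 0.0365% ERSE-II and 0.676% UPRE. Of the tested ER genes, 23 had at least 1 element (4 rose, 1 fell, median 0.05), and 78 had a promoter in the table without one (9 rose, 11 fell, median -0.03). The 5 called genes with an element are printed here with the uncalled Hspa5 for comparison, written 5′ to 3′ on the strand of the gene with the element in capitals. For the 4 UPRE genes the stretch holds the element with 30 bases on each side, and for the others the whole window.
Kdelr3, chr15:79516348-79516415, + strand: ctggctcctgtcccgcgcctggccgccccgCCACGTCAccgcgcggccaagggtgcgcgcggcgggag
Sec24d, chr3:123267440-123267507, + strand: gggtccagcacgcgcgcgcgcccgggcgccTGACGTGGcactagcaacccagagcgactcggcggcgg
Txndc5, chr13:38528015-38528082, - strand: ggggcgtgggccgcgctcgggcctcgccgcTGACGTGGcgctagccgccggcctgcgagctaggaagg
Txndc11, chr16:11134597-11134664, - strand: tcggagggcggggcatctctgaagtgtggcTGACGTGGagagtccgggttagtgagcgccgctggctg
Hsp90b1, chr10:86705395-86705694, - strand: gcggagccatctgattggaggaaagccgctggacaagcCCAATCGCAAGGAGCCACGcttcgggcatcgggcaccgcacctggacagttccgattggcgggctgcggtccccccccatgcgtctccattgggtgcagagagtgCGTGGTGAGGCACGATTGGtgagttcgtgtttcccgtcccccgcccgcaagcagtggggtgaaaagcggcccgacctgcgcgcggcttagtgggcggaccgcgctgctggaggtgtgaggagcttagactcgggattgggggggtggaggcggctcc
Hspa5, chr2:34771840-34772139, + strand: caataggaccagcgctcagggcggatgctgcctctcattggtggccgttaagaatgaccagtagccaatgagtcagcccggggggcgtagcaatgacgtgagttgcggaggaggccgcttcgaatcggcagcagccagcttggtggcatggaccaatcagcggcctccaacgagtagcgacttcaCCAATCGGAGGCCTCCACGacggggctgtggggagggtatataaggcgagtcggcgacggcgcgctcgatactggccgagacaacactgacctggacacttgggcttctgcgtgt
The element of Kdelr3 lies 23 to 30 bases before the start in the opposite orientation, and that of Sec24d 19 to 26 bases before it. Those of Txndc5 and Txndc11 lie 131 to 138 and 95 to 102 bases before the start. Kdelr3, Sec24d and Txndc5 rose, while Txndc11, a thioredoxin-like ER protein with the same 8 letters, fell by 0.33 ± 0.11 on the log2 scale (1.12 to 1.39 in Xbp1 -/- against 1.4 to 1.7 in Xbp1 +/+ dishes). The ER genes Arf1, Copb1, Copb2, Sec23a, Stx5a, Ube2j1 and Vcp also held UPRE and did not pass. Hsp90b1, the ER form of HSP90, carries ERSE in both orientations and rose by 0.31 ± 0.06, at 32.6 to 37.3 in Xbp1 -/- against 27.2 to 30.9 in Xbp1 +/+ dishes. It was the sole riser of 9 tested ER genes with ERSE, none of which fell. Among all 66 tested genes with UPRE, 6 rose and 10 fell, 9.09% and 15.2%. Among all 85 tested genes with any element, 8 rose and 12 fell, 9.41% and 14.1%. The shares over all tested genes were 9.08% and 18.7%.

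Targets of ATF4 and CHOP, the PERK branch, gave 7 rises (19.4%) and 3 falls (8.33%) among 36 tested, with a median of 0.02. Over all genes the shares were 9.08% and 18.7%. Nupr1, a stress-induced chromatin protein, read 2.58, 2.85, 1.92, 3.12 and 3.32 in Xbp1 -/- against 1.22, 0.966, 1.29, 0.503 and 1.23 in Xbp1 +/+ dishes (1.46 ± 0.19). Eif4ebp1, a brake on translation, read 9.28 to 10.7 in Xbp1 -/- against 4.45 to 4.87 in Xbp1 +/+ dishes (1.10 ± 0.08, adjusted p = 4.25e-13). Sesn2 (0.65), Mthfd2 (0.49) and Trib3 (0.48) rose as well, and Ddit4 fell (-0.85 ± 0.22). CHOP itself (Ddit3) did not pass, at 2.96 to 3.88 in Xbp1 -/- against 2.93 to 3.97 in Xbp1 +/+ dishes (0.03, adjusted p = 0.86). The amino acid enzyme Asns, a usual target of ATF4, did not pass either (0.10, adjusted p = 0.46).

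Targets of p53 were more often higher. Of 22 tested 10 rose (45.5%) and 2 fell (9.09%), against 9.08% and 18.7% of all genes, with a median of 0.14. Sesn2 among the rises is also counted with the targets of ATF4 and CHOP. Pmaip1 (Noxa), which promotes apoptosis, read 3.58, 3.69, 4.34, 4.55 and 4.5 in Xbp1 -/- against 1.33, 1.1, 1.63, 1.11 and 1.67 in Xbp1 +/+ dishes (1.61 ± 0.11, 3.06-fold, adjusted p = 8.78e-14). The cell cycle inhibitor Cdkn1a read 27.8 to 32.4 in Xbp1 -/- against 17.9 to 23.3 in Xbp1 +/+ dishes (0.58 ± 0.08), and Ccng1 (0.57), Phlda3 (0.56) and Mdm2 (0.40) rose with it. The effectors Bbc3 (difference 0.00, adjusted p = 0.999) and Bcl2l11 (-0.07, adjusted p = 0.746) did not pass.

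Interferon-stimulated genes were higher where they passed. Of 20 tested members 14 rose (70%, against 9.08% of all genes) and none fell, with a median of 0.57. Without the filter on low signals 16 of 32 rose. Ifitm3, which blocks virus entry, read 19.6, 20.8, 25.5, 23.8 and 24.3 in Xbp1 -/- against 9.48, 11.5, 12.7, 10.5 and 11.2 in Xbp1 +/+ dishes (1.04 ± 0.09). Ifit1 rose by 1.16 ± 0.14 and Ifitm1 by 1.43 ± 0.21. The antigen presentation genes B2m (0.50) and Tap1 (0.59) rose, while H2-D1 (0.24, adjusted p = 0.0707) and H2-K1 (0.28, adjusted p = 0.264) did not pass. The factor Irf1 did not pass (0.11, adjusted p = 0.525). Meningeal markers rose in the same dishes (24 of 25 tested, 28 of 33 without the filter), and their part in this result was not tested.

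Sterol and lipid synthesis genes were lower where they passed. Of 23 tested 9 fell (39.1%, against 18.7% of all genes) and none rose, with a median of -0.20. Stard4, a cholesterol carrier, read 3.76 to 4.32 in Xbp1 -/- against 5.29 to 6.45 in Xbp1 +/+ dishes (-0.56 ± 0.09). Fdft1, squalene synthase, read 38, 36.5, 38.9, 38.3 and 44.1 in Xbp1 -/- against 48.5, 52.5, 49.6, 49.6 and 48.3 in Xbp1 +/+ dishes (-0.35 ± 0.05), and no dish overlapped. Its call was lost with the mean of probe sets (Fdft1 -0.043, adjusted p = 0.87) and on the signals as deposited (-0.25, adjusted p = 0.0795). Hmgcs1, the brightest member, did not pass (-0.10, adjusted p = 0.203). Of 14 tested antioxidant genes under NRF2, 2 rose (14.3%) and 3 fell (21.4%), not far from the 9.08% and 18.7% of all genes. Among them Me1 was up by 1.18. The glutathione transferase Gsta4 was down to 6.11 to 7.86 in Xbp1 -/- against 12.4 to 15.5 in Xbp1 +/+ dishes (-1.09 ± 0.09).

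Transcript of the BDNF receptor was measured in both genotypes. Ntrk2, which encodes TrkB, read 4.2 to 5.13 in Xbp1 -/- against 4.24 to 5.58 in Xbp1 +/+ dishes (-0.14 ± 0.08, adjusted p = 0.195). Bdnf mRNA read 0.732 to 1.32 in Xbp1 -/- against 1.13 to 1.23 in Xbp1 +/+ dishes (-0.20 ± 0.14, adjusted p = 0.289). Of 5 tested neurotrophin and receptor genes 1 fell (20%, against 18.7% of all genes), Sort1 (-0.20), which sorts proBDNF. That call was lost under all 3 other scalings, without Xbp1 -/- replicate 1 (adjusted p = 0.0501) and with the mean of probe sets (Sort1 -0.046, adjusted p = 0.741). Both Ntrk2 and Bdnf were named after their values were seen.

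Genes beside Xbp1 on chromosome 11 were examined because littermates that differ at a targeted locus can also differ in the flanking chromosome. Of the 20 nearest tested genes on each side 16 of 40 passed (40%, 7 higher and 9 lower), against 27.7% of all genes and 28.6% of the 625 tested on chromosome 11. Nf2, the tumour suppressor merlin, read 2.46, 2.37, 2.1, 2.37 and 2.47 in Xbp1 -/- against 4.1, 4.38, 4.55, 4.62 and 4.27 in Xbp1 +/+ dishes (-0.90 ± 0.07, adjusted p = 2.29e-12). Aebp1, a protein of connective tissue, rose by 1.33 ± 0.17 and Pold2, a subunit of DNA polymerase delta, by 0.50 ± 0.08. The probe sets of Nipsnap1 disagreed. The brightest read 8.77 to 10.9 in Xbp1 -/- against 13.2 to 16.5 in Xbp1 +/+ dishes (-0.60 ± 0.07), while another probe set of Nipsnap1 read 8.53 to 9.82 against 5.68 to 6.35 (0.65 ± 0.07, adjusted p = 6.02e-08). The immediate neighbours Rhbdd3 (-0.14, adjusted p = 0.324) and Ewsr1 (-0.04, adjusted p = 0.655) on one side did not pass, and Ccdc117 on the other fell (-0.51 ± 0.15), a call that did not hold with the mean of its probe sets. Whether strain differences around the locus touch these probe sets was not tested.

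Most basal rises, and a smaller share of the basal falls, were called again in the dishes that received BDNF. Those dishes are other aliquots of the same pools. At 24 h 1872 genes (26%) differed between genotypes, 601 higher (8.36%) and 1271 lower (17.7%), and at 48 h 1722 (23.9%), 691 higher (9.61%) and 1031 lower (14.3%). Of the 653 basal rises 497 were also called higher at 24 h, 76.1% of the basal list and 82.7% of the 24 h list. At 48 h 537 were, 82.2% and 77.7%. Of the 1342 basal falls 732 were called lower at 24 h (54.5% and 57.6%) and 622 at 48 h (46.3% and 60.3%). In all 3 comparisons 477 rises (73%) and 486 falls (36.2%) were called. The sign alone was kept by 1306 of the falls at 24 h and by 1273 at 48 h. The calls went the other way in 1 gene at 24 h and in 4 genes at 48 h. Slc6a3 was higher by 2.53 in basal dishes, 2.58 at 24 h and 3.39 at 48 h, and Ttr differed by -3.56, -3.90 and -2.58. The difference in Xbp1 was 0.22, 0.07 and 0.10, and did not pass at either time of BDNF (adjusted p = 0.37 and 0.234). These dishes repeat the culture, not the embryos.

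**Figure D5:**
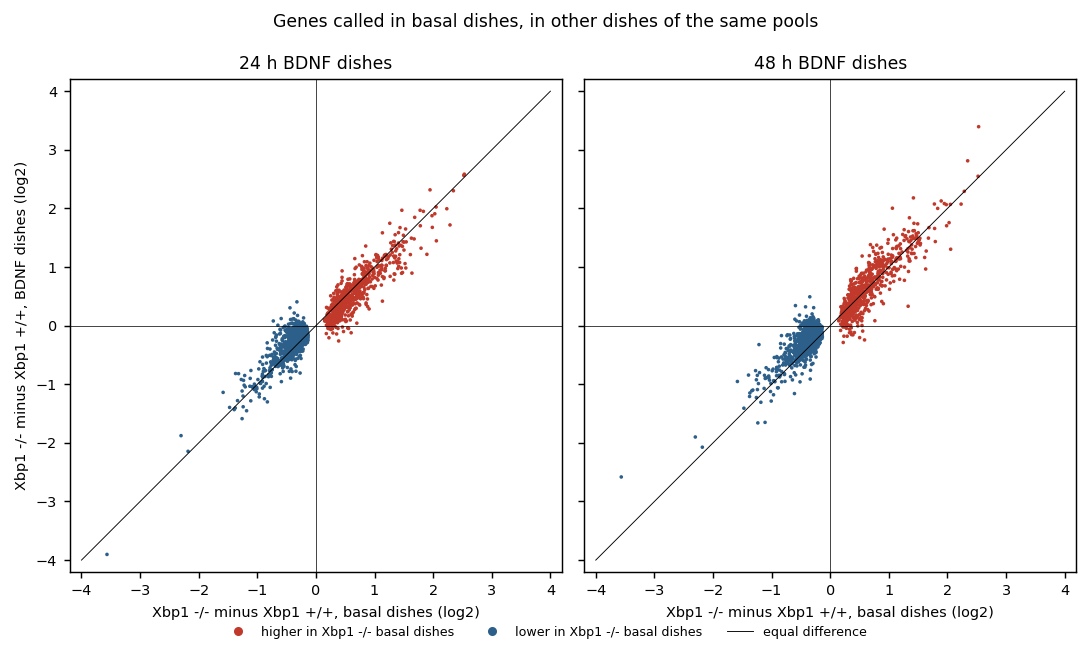
Difference Xbp1 -/- minus Xbp1 +/+ (log2) of the 1995 genes called in basal dishes (x axis) against the difference of the same genes in dishes with 24 h (left) or 48 h (right) of BDNF (y axis), with 1 point per gene. Red marks genes higher and blue genes lower in Xbp1 -/- basal dishes, and the diagonal marks equal differences. Most points lie near the diagonal, and few lie to the upper left or lower right of the origin.

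For few genes did a change of the genotype difference between basal and BDNF dishes pass the threshold. The interaction term passed for 6 genes at 24 h (0.0834%) and 11 at 48 h (0.153%). A term that did not pass does not show that the difference stayed the same. The 48 h dishes were lysed on day 5 and the basal dishes on day 4. BDNF and the day of lysis therefore cannot be told apart in the 48 h changes. Igfbp4 was higher by 2.05 in basal and by 1.30 in 48 h dishes, a change of -0.75 (adjusted p = 0.0342). Clu was lower throughout, with differences of -1.58 in basal and -0.95 in 48 h dishes, a change of 0.63 (adjusted p = 0.0342). Id3 was higher by 1.42 and by 2.18, a change of 0.76 (adjusted p = 0.0462), and the ribosomal protein gene Rps9 differed by 0.23 and by -0.18, a change of -0.41 (adjusted p = 0.0489). Bdnf differed by -0.20 in basal and 0.73 in 24 h dishes, a change of 0.93 (adjusted p = 0.0414). Another Bdnf probe set of like brightness differed by -0.16 in basal and 0.15 in 24 h dishes, where it did not pass (adjusted p = 0.538).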

How the data were processed

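RNA of 30 dishes was measured on 1 Affymetrix Mouse Genome 430A 2.0 array each after two-cycle labelling, per the labels' protocols. The deposited values are MAS5 signals, linear intensity values per probe set, per the submitters' processing notes. The MAS5 scaling target is not given in the sources used here, and the median division and present-call filter of the design text are not visible in the deposited intensity values. Of 22690 probe sets, 20393 had 1 gene symbol in the platform annotation, 691 several and 1606 none. The brightest probe set stood for a gene (12394 genes). Each deposited intensity was divided by its array's median, set to at least 0.1 and taken to log2. Genes on X and Y were left out, and the upper 60% by mean log2 signal were tested (7190 genes). No detection calls were used.

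A model of 6 group means over the 30 arrays was fitted in limma (version 3.58.1, R 4.3.3) by lmFit and eBayes with an intensity trend, with Benjamini-Hochberg adjustment over all tested genes within a comparison and a threshold of 0.05. The Gapdh ratio was compared by an exact permutation test. The procedure was tested on simulated data. The number of arrays limits the precision. The members and the 32 gene lists were chosen with earlier results of these data known. Genes were named by rule: Xbp1 and the sensor list, the 15 largest rises and 15 largest falls without overlap, up to 5 called members with the largest change per list, and called genes among the 20 nearest on each side of Xbp1. Further list members and the genes said to be picked later were named after their values were seen. Same-numbered dishes did not deviate together (correlations of deviations -0.09 to 0.24), so replicate numbers were not taken as pairs. Scaling, floor, filter, probe set choice, samples fitted, replicate block, array weights, the Gapdh covariate, thresholds and leaving out each array were varied.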

Additional observations from a re-analysis of the deposited data

Results flagged for a closer look

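In 23 of 360 groups of 5 arrays examined, 1 array lay far from the other 4 of its group by Dixon's criterion, and chance flags about 1 in 20 groups. Values are multiples of the array median. Among Xbp1 -/- dishes, replicate 2 was high for Slc6a3 (3.08, others 1.5 to 1.76) and low for Krt8 (0.369, others 0.539 to 0.61), Id3 (6.13, others 7.66 to 7.86), Olig1 (0.643, others 0.86 to 0.962) and Pdgfrb (2.23, others 2.51 to 2.61). Replicate 5 was high for Edem2 (1.94, others 1.21 to 1.38), Hspb8 (2.03, others 1.33 to 1.51), Selenom (3.01, others 2.57 to 2.65), Ccm2 (15.6, others 12 to 12.7) and Sec61a1 (40.2, others 35 to 35.8), and low for Fignl1 (1.44, others 1.75 to 1.88). Akr1c13 was low in replicate 1 (0.501, others 0.632 to 0.666), Nf2 in replicate 3 (2.1, others 2.37 to 2.47), and Dlx1as was high in replicate 4 (3.04, others 2.15 to 2.3).

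Among Xbp1 +/+ dishes, replicate 1 was low for Foxd1 (0.513, others 1.01 to 1.28), Mt1 (6.73, others 8.66 to 9.33), Txndc5 (5.93, others 8.17 to 8.88), Msx2 (0.564, others 0.698 to 0.754), Selenom (1.65, others 1.83 to 1.86) and Ntrk2 (4.24, others 5.23 to 5.58). It was high for Neurod2 (3.79, others 2.12 to 2.43) and Gclm (3.48, others 2.57 to 2.77). Neurod6 was low in replicate 2 (9.15, others 10.6 to 11.1).

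The genotype difference itself changed between basal and BDNF dishes, by the interaction term of the limma fit, for Igfbp4 (-0.75, adjusted p = 0.0342), Clu (0.63, adjusted p = 0.0342), Id3 (0.76, adjusted p = 0.0462) and Rps9 (-0.41, adjusted p = 0.0489) at 48 h and for Bdnf (0.93, adjusted p = 0.0414) at 24 h. Another Bdnf probe set differed by 0.15 at 24 h (adjusted p = 0.538) and by -0.16 in basal dishes. The X-linked Xist, outside the tested genes, read at least 53.9 in every Xbp1 -/- dish, against 0.229 to 0.433 in Xbp1 +/+ dishes.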

How the results depend on the processing

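Rises (653) became 308 and falls (1342) 147 at 1.5-fold or more, where the Xbp1 difference (0.22) no longer passed. Falls became 739 at a threshold of 0.01 and 215 on the signals as deposited, and rises 365 among the upper 40% of genes. Interaction calls at 24 h (6) became 12 after quantile normalization, 11 after 75th percentile scaling and 3 with the mean of probe sets, and those at 48 h (11) became 5 without the filter and 4 with the mean of probe sets. Leaving out 1 array gave 591 to 643 rises, 999 to 1507 falls, an Xbp1 difference of 0.21 to 0.26 and a Gapdh ratio difference of -0.16 to -0.0869 (exact permutation p 0.0397 to 0.19), with p = 0.0397 without Xbp1 +/+ replicate 3. With the replicate number as a block there were 687 rises and 1366 falls, and Xbp1 kept its call (adjusted p = 0.00769). Of 157 other named calls, 84 held under every setting that tested them.

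Signs turned for these genes, all but Nipsnap1, Ccdc117 and Purb uncalled to begin with. With the mean of probe sets the differences were 0.023 for Nipsnap1, 0.0031 for Ccdc117, -0.045 for Purb, -0.31 for Hyou1, 0.041 for Ntrk2, 0.019 for Dnajc3, 0.11 for Sec61a1 and 0.0051 for Creb3. Creb3 gave 0.038 under quantile, 0.015 under 75th percentile scaling, 0.063 as deposited, and -0.083 to 0.029 when 1 array was left out (0.00016 without Xbp1 -/- replicate 1, 0.029 without replicate 2). Sec61a1 gave 0.025, 0.011 and 0.059 under those 3 scalings. As deposited, Dnajc3 gave 0.0049 and Gad1 0.018. Herpud1 gave -0.039 with array weights, -0.099 with the Gapdh covariate, and -0.12 to 0.07 when 1 array was left out. Leaving out 1 array gave -0.01 to 0.27 for Gad2, -0.028 to 0.1 for Ddit3 and -0.026 to 0.1 for Edem1. The cause was not tested. Faint signals limit genes near or below the array median.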

Other observations

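Over all tested genes 9.08% rose and 18.7% fell, the shares to hold beside the counts below. Of 16 tested heat shock proteins and cytosolic chaperones 4 rose and 1 fell, with a median of -0.01. Cryab, alpha-B crystallin, read 12.4 to 14.1 times the array median in Xbp1 -/- against 6.43 to 8.92 in Xbp1 +/+ dishes (0.83 ± 0.08), and Hspb8 (0.82) and Hspb1 (0.53) rose with it. Of 40 tested ribosomal protein genes 2 rose and 2 fell, led by Rps27l (0.42), with 8 rises and no falls after quantile normalization. Of 21 tested secretory granule and neuropeptide genes 3 rose and 6 fell. Neurotensin (Nts) read 2.53 to 3.42 in Xbp1 -/- against 4.28 to 5.09 in Xbp1 +/+ dishes (-0.68 ± 0.11), while the granule protein Chgb rose by 0.29. Of 18 tested immediate-early and ERK target genes 3 rose and 6 fell, with Ier3 up by 0.70 and the ERK inhibitor Spred2 at 5.4 to 6.03 in Xbp1 -/- against 7.7 to 8.45 in Xbp1 +/+ dishes (-0.49 ± 0.07), a call lost with the mean of probe sets (Spred2 adjusted p = 0.183). Of 3 tested GABA-A receptor subunits Gabrb1 fell (-0.52), and of 3 oligodendrocyte lineage markers Olig1 fell (-0.54). The Olig1 call was lost with the replicate block (adjusted p = 0.051), with the Gapdh covariate (0.0555), under 75th percentile scaling (0.0526), on the signals as deposited (0.129) and without Xbp1 -/- replicate 2 (-0.44, adjusted p = 0.0829) or Xbp1 +/+ replicate 2 (-0.38, adjusted p = 0.106).

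Some genes, picked after their values were seen, lost or gained a genotype difference with BDNF. Igf1, a growth factor, was higher by 0.54 in Xbp1 -/- basal dishes and differed by -0.04 in 24 h dishes (change -0.58, adjusted p = 0.00572). Dusp6 and Spry2, feedback inhibitors of ERK signalling, did not pass in basal dishes (0.12, adjusted p = 0.274, and -0.16, adjusted p = 0.185). At 24 h of BDNF they were lower in Xbp1 -/- dishes, with differences of -0.55 for Dusp6 and -0.80 for Spry2.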
